A study of Mus musculus with 18 samples.

Results

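The genes described here were the collagen chains and integrin receptors of cultured mouse skeletal muscle myoblasts, read on Illumina MouseWG-6 bead arrays. They were chosen by platform symbol, as every gene whose whole symbol is Col, a number, a and a number, and every gene whose symbol starts with Itga or Itgb followed by a digit, v or x. This gave 66 of the 19057 genes on the array. Of these, 11 were fibrillar collagen chains, 9 chains of basement membranes and their anchors, 21 other collagen chains and 22 integrin subunits. The other 3, Itgb1bp1, Itgb1bp2 and Itgb3bp, carry an integrin symbol but encode proteins that bind integrins, and are described apart. A probe was kept where its detection p-value was below 0.05 on 3 or more arrays, and the kept probe with the highest mean stood for its gene. This left 48 genes, of which 26 were detected on all 18 arrays.

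All cells were myoblasts of the mouse strain Gata4tm1.1Sad/J, in which Gata4, the gene of a transcription factor, is flanked by loxP sites. The KO cells had received an adenovirus carrying Cre recombinase, the OE cells a retrovirus carrying mouse GATA4, and the Wt cells an adenovirus carrying nuclear β-galactosidase. Day 3 arrays came from infected cells after 3 days in DMEM with 5% FBS, the medium in which myoblasts differentiate, and day 0 arrays from infected cells in growth medium (Ham's/F10 with 20% FBS and bFGF). There were 3 arrays in each of the 6 groups, KO, OE and Wt at day 3 and KO, OE and Wt at day 0. The kind of virus differed between OE and Wt together with its cargo, so that their parts cannot be told apart. No label states whether replicates were separate cultures or animals, so the p-values below measure only the spread between these samples, which may be technical. In such bulk RNA, fewer cells of a type and less RNA per cell cannot be told apart.

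Collagens are made of chains wound in threes into a helix. Fibrillar types such as I, III and V form the cables of connective tissue, type IV forms the mesh of the basement membrane that ensheathes each muscle fibre, and type VI forms fine microfibrils at its outer face. Integrins are receptors built of an alpha and a beta subunit that span the cell membrane, bind collagen, laminin, fibronectin or other ligands outside the cell and anchor actin inside it. In muscle the pair of Itga7 and Itgb1 is the main laminin receptor of fibres, while Itgb4 pairs with Itga6 in the hemidesmosomes of epithelia.

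Col4a1 and Col4a2 encode the common chains of type IV collagen and lie head to head on chromosome 8. Their starts are 21 bases apart in the RefSeq annotation of GRCm38.p6, placed so that the genes as annotated overlap there rather than leave a gap. Their promoter windows, from 250 bases before to 50 bases after each start, share 78 bases, and are shown because both genes were highest and lowest on much the same arrays below. The Col4a1 window is chr8:11312777-11313076 on the minus strand and the Col4a2 window chr8:11312555-11312854 on the plus strand. Capitals mark GGGCGG and CCAAT on either strand.
Col4a1: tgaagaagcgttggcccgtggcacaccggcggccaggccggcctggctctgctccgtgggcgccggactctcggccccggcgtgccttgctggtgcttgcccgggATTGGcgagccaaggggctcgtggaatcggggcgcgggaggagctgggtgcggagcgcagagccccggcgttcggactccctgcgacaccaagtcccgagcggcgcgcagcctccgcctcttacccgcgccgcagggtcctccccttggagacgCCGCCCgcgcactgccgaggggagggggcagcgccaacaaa
Col4a2: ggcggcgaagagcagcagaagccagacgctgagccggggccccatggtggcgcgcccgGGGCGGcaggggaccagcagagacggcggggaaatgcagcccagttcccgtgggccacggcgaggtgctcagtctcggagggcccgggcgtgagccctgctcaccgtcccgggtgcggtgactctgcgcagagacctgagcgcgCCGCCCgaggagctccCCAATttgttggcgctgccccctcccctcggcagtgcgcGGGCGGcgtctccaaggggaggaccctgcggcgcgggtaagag

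The next windows belong to members with large differences between arrays. Itga9 and Col23a1 were high, and Itga3 low, on the arrays with high levels of muscle genes. Capitals mark CANNTG, the E box that muscle transcription factors such as MyoD bind, which reads the same on both strands. The windows are chr9:118711442-118711741 on the plus strand for Itga9, chr11:51289670-51289969 on the plus strand for Col23a1 and chr11:95076665-95076964 on the minus strand for Itga3.
Itga9: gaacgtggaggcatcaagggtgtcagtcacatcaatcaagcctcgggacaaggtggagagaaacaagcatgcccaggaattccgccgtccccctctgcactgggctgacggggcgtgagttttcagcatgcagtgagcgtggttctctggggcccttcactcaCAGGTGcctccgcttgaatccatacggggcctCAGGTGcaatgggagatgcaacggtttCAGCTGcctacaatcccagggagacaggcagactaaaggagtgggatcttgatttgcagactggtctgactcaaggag
Col23a1: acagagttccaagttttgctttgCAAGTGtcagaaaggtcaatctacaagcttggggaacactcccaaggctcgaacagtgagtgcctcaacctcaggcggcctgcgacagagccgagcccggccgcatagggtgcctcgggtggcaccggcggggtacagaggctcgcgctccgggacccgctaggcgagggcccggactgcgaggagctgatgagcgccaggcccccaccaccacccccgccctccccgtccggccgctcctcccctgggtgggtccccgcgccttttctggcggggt
Itga3: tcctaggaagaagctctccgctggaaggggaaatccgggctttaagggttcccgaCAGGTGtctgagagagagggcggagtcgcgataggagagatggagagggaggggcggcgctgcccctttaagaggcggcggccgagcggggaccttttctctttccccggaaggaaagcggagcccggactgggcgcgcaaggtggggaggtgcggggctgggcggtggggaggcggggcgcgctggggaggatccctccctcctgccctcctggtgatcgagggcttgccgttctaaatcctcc
Of the 48 kept members 38 were matched to a promoter in the RefSeq table, with 43 windows between them. CANNTG was found in 29 of the 43 windows, and in 72.3% of all 32851 windows of the table. GGGCGG was found in 24 windows (35.7% of all windows), CCAAT in 14 (37.4%) and TATAAA in 4 (13.6%), each searched on both strands, with overlapping matches of different motifs counted for each. A match is a run of letters only and says nothing of binding. Itga9, which was high with the muscle genes, held 3 E boxes, Col23a1 held 1, and Itga3, which was low with them, also held 1, as did the window of a further Itga3 start that is not printed.

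Between 16974 and 19966 probes of 45281 were detected per array, and the median intensity lay between 96.59 and 110.4 units. Of the 48 kept members, 30 to 41 were detected per array. The probe for Gata4 itself was detected on 5 of 18 arrays, at 91.91 to 116.3 intensity units, too close to background to check the labels, so the groups are called by their labels. Cdh15, the cadherin of myoblasts, was detected on all arrays at log2 levels of 9.94 to 11.54, and Myod1 at 10.08 to 11.13, while the satellite cell factor Pax7 was not kept. Markers of other cell types were kept in part. Of 12 leukocyte markers 5 were kept, with a mean log2 level of 5.14 to 5.99 per array, of which Laptm5 was detected on 18 arrays at 6.76 to 10.27, while Ptprc, Adgre1, Tyrobp and Spi1 were not kept. Of 8 endothelial markers 4 were kept (4.55 to 5.43), with Tek at 4.58 to 7.47, while Cdh5 and Tie1 were not. Of 6 epithelial markers 4 were kept (4.78 to 5.71), with Krt18 on 18 arrays at 4.77 to 8.11, while Epcam was not. Of the Schwann cell markers only Mbp was kept, at 4.36 to 6.77, and Sox10 was not. Of 11 fibroblast markers 5 were kept (5.47 to 6.51), with Thy1 at 6.23 to 9.62 and Pdgfra at 4.61 to 5.85, while Pdgfrb, Tcf21, Pi16, Dpp4 and Gli1 were not. The part of other cell types in the results below was not tested.

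The arrays did not group by label. Over genes that are not members, the 18 arrays fell into 6 sets of 3, each array being closest to the other members of its set (r of 0.9849 to 0.995 within sets). For 0 arrays did both of the 2 closest arrays share the label, for 8 arrays 1 of them did and for 10 none did. KO day 3 replicates 1 and 2 lay with Wt day 3 replicate 3. KO day 3 replicate 3 lay with OE day 3 replicate 1 and KO day 0 replicate 1. OE day 3 replicate 2 lay with OE day 0 replicates 1 and 3, and OE day 3 replicate 3 with Wt day 0 replicates 2 and 3. The first replicates of Wt at day 3 and at day 0 lay with OE day 0 replicate 2. Wt day 3 replicate 2 lay with KO day 0 replicates 2 and 3. In each set the lowest correlation within it was above the highest with any array outside it. The number and size of the sets are those of the labelled groups, and whether the labels fit the arrays cannot be told from these values. Each comparison below is by label, and its meaning rests on the labels being right.

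Muscle and dividing cell markers also crossed the labels. Ckm, the muscle creatine kinase, was above a log2 level of 10 on 9 arrays (10.86 to 11.38) and at 6.76 to 8.04 on the other 9. The 9 with high Ckm were the 3 KO day 3 arrays, OE day 3 replicate 1, Wt day 3 replicates 1 and 3, and, at day 0, replicate 1 of KO and of Wt and replicate 2 of OE. Top2a, a topoisomerase of dividing cells, was at 5.12 to 5.74 on those 9 arrays and at 7.81 to 8.8 on the others. At day 3 the mean log2 level of 11 muscle differentiation markers was 13.14, 13.13 and 13 in KO, 13.06, 11.06 and 11.28 in OE and 13.14, 11.62 and 13.09 in Wt. At day 0 that mean was 13.09, 11.58 and 11.69 in KO, 11.19, 13.18 and 11.12 in OE and 13.01, 11.36 and 11.33 in Wt. Both levels thus occurred in every group but KO at day 3, whose 3 arrays were all at the higher one. The part of muscle differentiation and of cell division in the differences between labelled groups below was not tested.

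The members varied widely from array to array. The median range of a member over the 18 arrays was 1.45 on the log2 scale, against 1.16 for all 11921 genes tested. The range was above 1 for 36 of 48 members (75%), against 62.6% of all genes, and above 2 for 18 members (37.5%), against 14.8%. The largest ranges were those of Col23a1 (3.48), Col26a1 (3.38), Itga3 (3.16), Itgb4 (3.13), Col4a5 (3.01), Col18a1 (3), Itga9 (3) and Itgb6 (2.82). These are ranges of log2 levels, each within 1 probe.

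**Figure D1:**
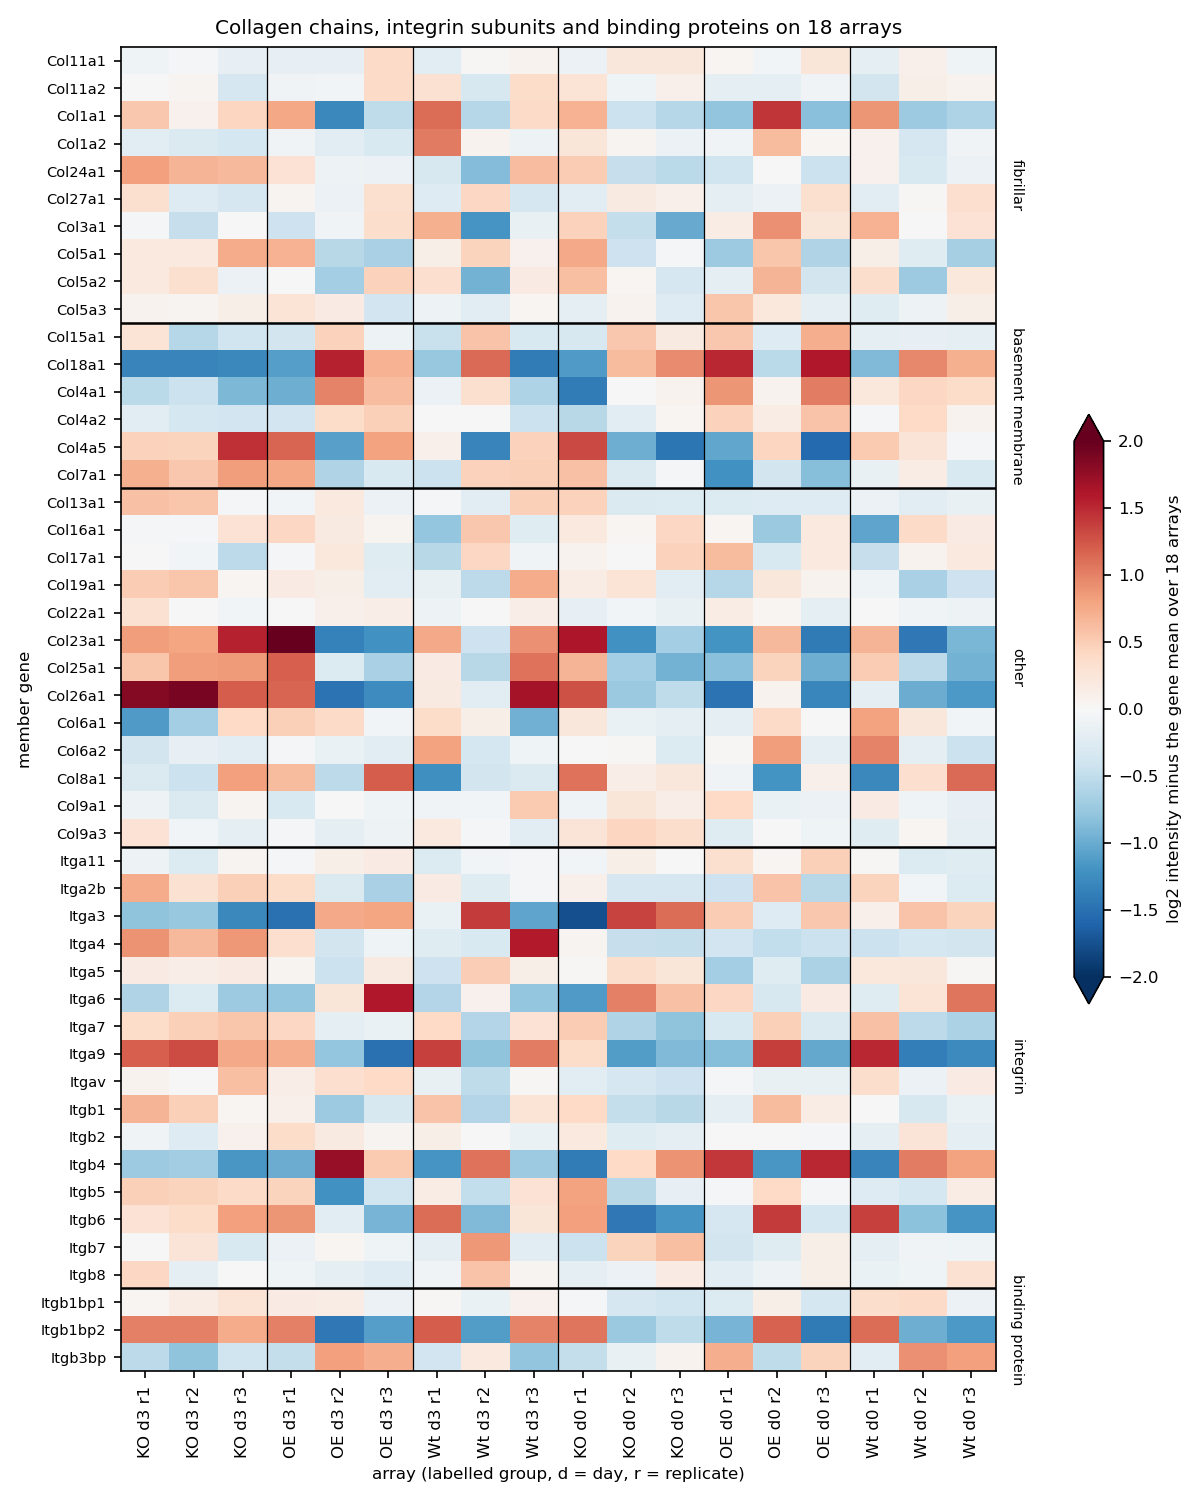
Each cell is the log2 intensity of 1 member (rows, by role) on 1 array (columns, by labelled group), minus that member's mean over the 18 arrays. Col18a1, Itga3, Itgb4 and Itgb3bp are low, and Col23a1, Itga9, Itgb6 and Itgb1bp2 high, on the same 9 arrays, which belong to all 6 labelled groups.

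Among the fibrillar chains, 10 of 11 were kept, and only Col1a1, Col3a1, Col5a1 and Col24a1 were detected on 17 or 18 arrays. Col1a1 had log2 levels of 6.57, 6.11 and 6.45 in KO at day 3, 6.79, 4.73 and 5.51 in OE at day 3 and 7.14, 5.46 and 6.41 in Wt at day 3. Col1a1 at day 0 was at 6.72, 5.6 and 5.46 in KO, 5.23, 7.45 and 5.19 in OE and 6.9, 5.3 and 5.4 in Wt. Col1a1, the main chain of type I collagen, was above 6 on each of the 9 arrays with high Ckm and below 6 on each of the others, so that the groups other than KO day 3 held both levels. Col1a2 at day 3 had log2 levels of 4.58, 4.52 and 4.45 in KO, 4.73, 4.6 and 4.5 in OE and 5.85, 4.87 and 4.71 in Wt. Col1a2 in growth medium was at 5.05, 4.86 and 4.69 in KO, 4.73, 5.44 and 4.84 in OE and 4.89, 4.47 and 4.74 in Wt. Its partner chain Col1a2 was close to background and was detected on 11 arrays, with Wt day 3 replicate 1 and OE day 0 replicate 2 highest. Col3a1 had log2 levels of 6.92, 6.51 and 6.96 in KO at day 3, 6.55, 6.89 and 7.31 in OE at day 3 and 7.68, 5.79 and 6.82 in Wt at day 3. Col3a1 at day 0 was at 7.43, 6.49 and 5.95 in KO, 7.11, 7.88 and 7.21 in OE and 7.66, 6.95 and 7.26 in Wt. Col3a1, the chain of type III collagen, was lowest on Wt day 3 replicate 2 and KO day 0 replicates 3 and 2, and highest on OE day 0 replicate 2, Wt day 3 replicate 1 and Wt day 0 replicate 1. The arrays that ended the order of Col3a1 at either end thus carried different labels. A further Col3a1 probe, detected on 12 arrays, was also lowest on Wt day 3 replicate 2 but highest on Wt day 0 replicate 1.

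Col5a1 at day 3 had log2 levels of 9.6, 9.6 and 10.15 in KO, 10.1, 8.85 and 8.76 in OE and 9.53, 9.86 and 9.49 in Wt. Col5a1 in growth medium was at 10.17, 8.99 and 9.39 in KO, 8.68, 9.96 and 8.81 in OE and 9.52, 9.16 and 8.75 in Wt. Col5a1, a chain of the type V collagen that seeds new fibrils, was highest on KO day 0 replicate 1, KO day 3 replicate 3 and OE day 3 replicate 1. Col5a2 had log2 levels of 5.61, 5.74 and 5.31 in KO at day 3, 5.41, 4.74 and 5.88 in OE at day 3 and 5.76, 4.48 and 5.59 in Wt at day 3. Col5a2 at day 0 was at 6.03, 5.46 and 5.09 in KO, 5.24, 6.1 and 5.05 in OE and 5.77, 4.7 and 5.63 in Wt. Col5a2, which joins Col5a1 in type V and neighbours Col3a1 on chromosome 1, had its lowest level on Wt day 3 replicate 2, as Col3a1 did, and its highest on OE day 0 replicate 2, as Col3a1 did. Col11a1 at day 3 had log2 levels of 4.44, 4.48 and 4.35 in KO, 4.36, 4.36 and 4.9 in OE and 4.29, 4.54 and 4.59 in Wt. Col11a1 in growth medium was at 4.41, 4.75 and 4.74 in KO, 4.56, 4.46 and 4.77 in OE and 4.32, 4.62 and 4.43 in Wt. Col11a1, a minor fibrillar chain best known from cartilage, was detected on 4 arrays and stayed below 5 on all 18. Col24a1 ranged from 4.9 to 6.58 in log2 level, with all 3 KO day 3 arrays and Wt day 3 replicate 3 at 6.38 or above. Col11a2 (4.29 to 5.04), Col27a1 (4.32 to 5.07) and Col5a3 (4.29 to 5.22) stayed close to background, and the cartilage chain Col2a1 was detected on 0 arrays.

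Of the basement membrane chains 6 of 9 were kept. Col4a1 had log2 levels of 8.42, 8.52 and 8.06 in KO at day 3, 7.98, 9.95 and 9.57 in OE at day 3 and 8.83, 9.28 and 8.33 in Wt at day 3. Col4a1 at day 0 was at 7.56, 8.95 and 9.03 in KO, 9.83, 9.02 and 9.97 in OE and 9.16, 9.37 and 9.32 in Wt. Col4a1 was highest on OE day 0 replicates 3 and 1 and OE day 3 replicate 2, and lowest on KO day 0 replicate 1, OE day 3 replicate 1 and KO day 3 replicate 3. Col4a2 at day 3 had log2 levels of 7.29, 7.17 and 7.13 in KO, 7.13, 7.88 and 8 in OE and 7.53, 7.53 and 7.09 in Wt. Col4a2 in growth medium was at 6.96, 7.31 and 7.55 in KO, 7.98, 7.67 and 8.08 in OE and 7.5, 7.92 and 7.58 in Wt. Col4a2, which shares the start region printed above, was highest on OE day 0 replicate 3 and lowest on KO day 0 replicate 1, as Col4a1 was. The log2 range of Col4a2, 1.12, was narrower than the 2.41 of Col4a1, each on its own probe. Col4a5 had log2 levels of 6.86, 6.84 and 7.85 in KO at day 3, 7.55, 5.31 and 7.2 in OE at day 3 and 6.49, 5.08 and 6.85 in Wt at day 3. Col4a5 at day 0 was at 7.72, 5.42 and 4.95 in KO, 5.35, 6.83 and 4.84 in OE and 6.91, 6.65 and 6.37 in Wt. Col4a5, an X-linked chain best known from kidney filters, was highest on KO day 3 replicate 3, KO day 0 replicate 1 and OE day 3 replicate 1. It was below 5.5 on OE day 3 replicate 2, Wt day 3 replicate 2, KO day 0 replicates 2 and 3 and OE day 0 replicates 1 and 3.

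Col18a1 at day 3 had log2 levels of 9.98, 9.98 and 10.01 in KO, 10.2, 12.83 and 11.99 in OE and 10.54, 12.43 and 9.89 in Wt. Col18a1 in growth medium was at 10.17, 11.93 and 12.24 in KO, 12.8, 10.76 and 12.89 in OE and 10.42, 12.25 and 12 in Wt. Col18a1, a basement membrane collagen that carries heparan sulfate and from which endostatin is cut, was below 11 on the 9 arrays with high Ckm and above 11.9 on the others. Its mean log2 level was 9.99 ± 0.02 (SD, n = 3) in KO day 3 and 11.45 ± 1.12 in KO day 0. Col15a1 had log2 levels of 5.15, 4.31 and 4.49 in KO at day 3, 4.51, 5.34 and 4.78 in OE at day 3 and 4.44, 5.45 and 4.58 in Wt at day 3. Col15a1 at day 0 was at 4.56, 5.42 and 5.07 in KO, 5.42, 4.63 and 5.61 in OE and 4.7, 4.72 and 4.71 in Wt. Col15a1, its close relative, was detected on 9 arrays and was highest on OE day 0 replicate 3 and Wt day 3 replicate 2. Col7a1, which forms the anchoring fibrils of skin, had its lowest log2 levels, 5.64, 6.01 and 6.26, on OE day 0 replicates 1 and 3 and OE day 3 replicate 2. The kidney chains Col4a3, Col4a4 and Col4a6 were each detected on at most 1 array.

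**Figure D2:**
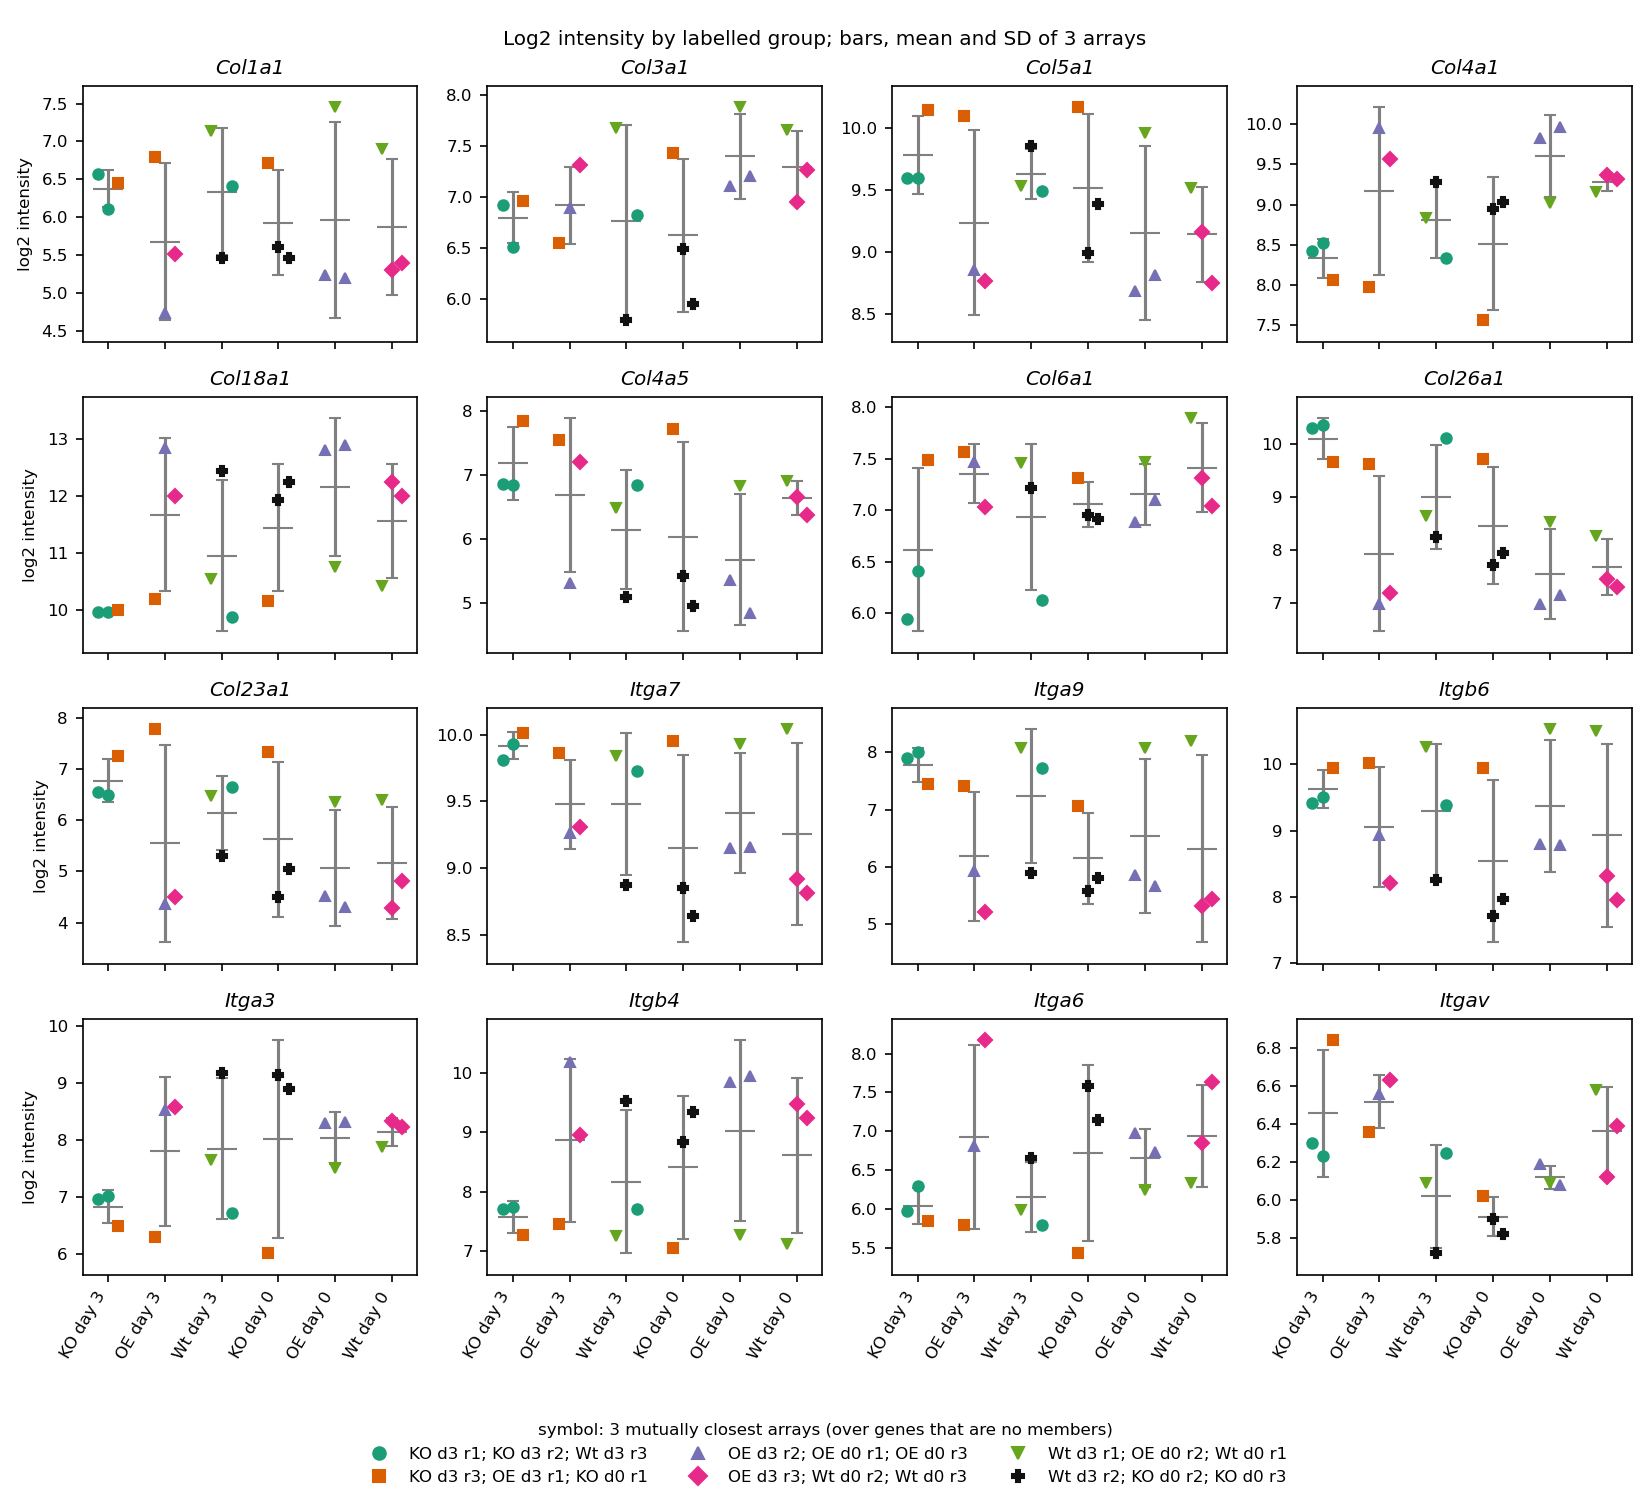
Each panel gives the log2 intensity of 1 member on the 3 arrays of each labelled group, with the group mean and SD as bars and the symbol telling which 3 arrays were mutually closest over other genes. Arrays with the same symbol lie at like heights across labels, as for Col18a1 and Itga9, and the labelled groups overlap in most panels.

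Among the other chains, 13 of 21 were kept. Col6a1 at day 3 had log2 levels of 5.95, 6.41 and 7.49 in KO, 7.56, 7.47 and 7.03 in OE and 7.46, 7.21 and 6.13 in Wt. Col6a1 in growth medium was at 7.31, 6.95 and 6.91 in KO, 6.89, 7.47 and 7.1 in OE and 7.89, 7.31 and 7.04 in Wt. Col6a1, a chain of the microfibrils around muscle fibres, was at 6.41 or below on KO day 3 replicates 1 and 2 and Wt day 3 replicate 3, and at 6.89 or above on the other 15 arrays. Col6a2 had log2 levels of 4.37, 4.58 and 4.52 in KO at day 3, 4.72, 4.6 and 4.52 in OE at day 3 and 5.54, 4.39 and 4.65 in Wt at day 3. Col6a2 at day 0 was at 4.75, 4.76 and 4.47 in KO, 4.76, 5.57 and 4.54 in OE and 5.73, 4.55 and 4.31 in Wt. Its neighbour on chromosome 10, Col6a2, was detected on 7 arrays and was above 5.5 on OE day 0 replicate 2 and on replicate 1 of Wt at either day alone. Both genes were highest on Wt day 0 replicate 1. The third chain of type VI, Col6a3, was not analysed here, and Col6a4, Col6a5 and Col6a6 were detected on 0 arrays.

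The collagens that span the cell membrane differed in range, from 0.87 for Col13a1 to 3.48 for Col23a1. Col23a1 at day 3 had log2 levels of 6.55, 6.5 and 7.25 in KO, 7.77, 4.36 and 4.51 in OE and 6.48, 5.31 and 6.64 in Wt. Col23a1 in growth medium was at 7.33, 4.5 and 5.04 in KO, 4.52, 6.36 and 4.31 in OE and 6.4, 4.29 and 4.81 in Wt. Col23a1, one of these, was at 6.36 or above on the 9 arrays with high Ckm and at 5.31 or below on the others. Col25a1, which mouse motor axons need to reach their muscles, ranged from 4.37 to 6.54 in log2 level, with the same 9 arrays at 5.51 or above. Col13a1, a membrane collagen of the neuromuscular junction, was detected on 4 arrays and was between 4.24 and 5.11. Col26a1 had log2 levels of 10.29, 10.35 and 9.66 in KO at day 3, 9.62, 6.98 and 7.19 in OE at day 3 and 8.63, 8.24 and 10.11 in Wt at day 3. Col26a1 at day 0 was at 9.72, 7.71 and 7.94 in KO, 6.97, 8.52 and 7.14 in OE and 8.27, 7.45 and 7.3 in Wt. Col26a1, a less studied chain, was highest on KO day 3 replicates 2 and 1 and Wt day 3 replicate 3, and lowest on OE day 0 replicate 1 and OE day 3 replicate 2. A further Col26a1 probe stayed close to background, at 4.39 to 5.11. Col8a1, a network chain of vessel walls, was at 7.19 to 7.28 on OE day 0 replicate 2 and on replicate 1 of Wt at either day, and at 7.96 to 9.69 elsewhere. Col16a1 was lowest on the same 3 arrays, at 6.38 to 6.69, against 7.2 to 7.98 elsewhere. Of the chains that attach to other fibrils, Col19a1 ranged from 4.47 to 5.86, Col22a1, known from muscle-tendon junctions, from 4.33 to 4.81, Col9a1 from 4.21 to 5.04 and Col9a3 from 4.3 to 4.98. Col17a1, a membrane collagen of hemidesmosomes, ranged from 4.37 to 5.57. Col10a1, Col14a1, Col28a1, Col8a2 and Col9a2 were detected on at most 2 arrays and not kept.

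Of the 22 integrin subunits 16 were kept. Those that bind collagen were seldom detected, as Itga1 was detected on 0 arrays, Itga2 on 1 and Itga11 on 4, and Itga10 was not analysed here. Itga11 at day 3 had log2 levels of 4.51, 4.34 and 4.68 in KO, 4.6, 4.73 and 4.79 in OE and 4.34, 4.57 and 4.6 in Wt. Itga11 in growth medium was at 4.57, 4.73 and 4.61 in KO, 4.94, 4.66 and 5.09 in OE and 4.64, 4.35 and 4.38 in Wt. Itga11 stayed below 5.1 on every array, with OE day 0 replicates 3 and 1 highest. Itgb1 had log2 levels of 8.1, 7.89 and 7.45 in KO at day 3, 7.52, 6.69 and 7.1 in OE at day 3 and 7.99, 6.84 and 7.69 in Wt at day 3. Itgb1 at day 0 was at 7.81, 6.94 and 6.86 in KO, 7.22, 8.05 and 7.57 in OE and 7.43, 7.1 and 7.28 in Wt. Itgb1, the beta subunit that partners most of the alpha subunits here, was highest on KO day 3 replicate 1 and OE day 0 replicate 2 and lowest on OE day 3 replicate 2. Its levels in the 3 KO day 3 arrays overlapped those of the Wt day 3 arrays.

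The laminin receptors parted in opposite ways. Itga7 at day 3 had log2 levels of 9.81, 9.93 and 10.01 in KO, 9.86, 9.26 and 9.31 in OE and 9.84, 8.87 and 9.73 in Wt. Itga7 in growth medium was at 9.95, 8.85 and 8.64 in KO, 9.15, 9.93 and 9.16 in OE and 10.04, 8.92 and 8.81 in Wt. Itga7, the alpha subunit of the laminin receptor of muscle fibres, was at 9.73 or above on the 9 arrays with high Ckm and at 9.31 or below on the others. Itga3 had log2 levels of 6.97, 7.01 and 6.49 in KO at day 3, 6.29, 8.53 and 8.57 in OE at day 3 and 7.64, 9.17 and 6.72 in Wt at day 3. Itga3 at day 0 was at 6.01, 9.13 and 8.89 in KO, 8.29, 7.51 and 8.31 in OE and 7.87, 8.34 and 8.22 in Wt. Itga3, a laminin receptor of epithelia and other tissues, ran the other way, at 7.87 or below on those 9 arrays and at 8.22 or above on the others. Itga6 at day 3 had log2 levels of 5.97, 6.29 and 5.84 in KO, 5.8, 6.81 and 8.17 in OE and 5.99, 6.66 and 5.8 in Wt. Itga6 in growth medium was at 5.43, 7.58 and 7.15 in KO, 6.98, 6.25 and 6.73 in OE and 6.33, 6.85 and 7.64 in Wt. Itga6, which pairs with Itgb1 or Itgb4, was highest on OE day 3 replicate 3 and lowest on KO day 0 replicate 1. Itgb4 had log2 levels of 7.71, 7.75 and 7.27 in KO at day 3, 7.45, 10.18 and 8.96 in OE at day 3 and 7.26, 9.53 and 7.71 in Wt at day 3. Itgb4 at day 0 was at 7.05, 8.84 and 9.34 in KO, 9.85, 7.27 and 9.95 in OE and 7.12, 9.47 and 9.24 in Wt. Itgb4 was at 7.75 or below on the 9 arrays with high Ckm and at 8.84 or above on the others.

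Among the receptors of fibronectin and related ligands, Itga4 at day 3 had log2 levels of 5.59, 5.35 and 5.57 in KO, 5.04, 4.33 and 4.62 in OE and 4.45, 4.39 and 6.28 in Wt. Itga4 in growth medium was at 4.76, 4.23 and 4.22 in KO, 4.32, 4.21 and 4.27 in OE and 4.27, 4.34 and 4.33 in Wt. Itga4, which binds fibronectin and the adhesion molecule Vcam1, was above 5 on the 3 KO day 3 arrays, OE day 3 replicate 1 and Wt day 3 replicate 3 alone. Itga5 at day 3 had log2 levels of 7.57, 7.54 and 7.56 in KO, 7.46, 6.98 and 7.59 in OE and 6.99, 7.9 and 7.52 in Wt. Itga5 in growth medium was at 7.42, 7.76 and 7.64 in KO, 6.73, 7.16 and 6.77 in OE and 7.61, 7.63 and 7.42 in Wt. Itga5, the alpha subunit of the main fibronectin receptor, was lowest on OE day 0 replicates 1 and 3 and OE day 3 replicate 2. Itgav had log2 levels of 6.3, 6.23 and 6.84 in KO at day 3, 6.36, 6.56 and 6.63 in OE at day 3 and 6.09, 5.72 and 6.25 in Wt at day 3. Itgav at day 0 was at 6.02, 5.9 and 5.82 in KO, 6.19, 6.09 and 6.08 in OE and 6.58, 6.12 and 6.39 in Wt. Itgav, which binds vitronectin and fibronectin, had a narrow range of 1.12 and was lowest on Wt day 3 replicate 2 and highest on KO day 3 replicate 3. Itga9 at day 3 had log2 levels of 7.9, 8.01 and 7.45 in KO, 7.42, 5.93 and 5.21 in OE and 8.07, 5.89 and 7.73 in Wt. Itga9 in growth medium was at 7.06, 5.58 and 5.81 in KO, 5.85, 8.08 and 5.67 in OE and 8.2, 5.31 and 5.43 in Wt. Itga9, a receptor of tenascin and Vcam1, was at 7.06 or above on the 9 arrays with high Ckm and at 5.93 or below on the others.

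The beta subunits that partner Itgav were unlike one another. Itgb5 had log2 levels of 8.94, 8.92 and 8.85 in KO at day 3, 8.91, 7.25 and 8.07 in OE at day 3 and 8.61, 7.97 and 8.76 in Wt at day 3. Itgb5 at day 0 was at 9.27, 7.92 and 8.3 in KO, 8.43, 8.86 and 8.44 in OE and 8.21, 8.11 and 8.61 in Wt. Itgb5 was lowest on OE day 3 replicate 2 and highest on KO day 0 replicate 1. Itgb6 at day 3 had log2 levels of 9.42, 9.51 and 9.95 in KO, 10.02, 8.93 and 8.21 in OE and 10.26, 8.25 and 9.38 in Wt. Itgb6 in growth medium was at 9.95, 7.71 and 7.96 in KO, 8.8, 10.53 and 8.79 in OE and 10.51, 8.32 and 7.95 in Wt. Itgb6, known from epithelia as an activator of latent TGF-beta, was at 9.38 or above on the 9 arrays with high Ckm and at 8.93 or below on the others. Itgb8 was detected on 3 arrays, at log2 levels of 4.2 to 5.02 over all 18, and the platelet and bone subunit Itgb3 on 0. Itga8, Itgax and Itgb2l were detected on at most 1 array and not kept. The leukocyte subunits Itgb2 and Itgb7 were detected on 4 and 5 arrays, and the platelet alpha subunit Itga2b on all 18, at 4.79 to 6.19.

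The integrin-binding proteins were detected on every array. At day 3 Itgb1bp2, known as melusin and made in striated muscle, was at a log2 level of 10.86, 10.85 and 10.58 in KO, 10.86, 8.42 and 8.75 in OE and 11.05, 8.73 and 10.84 in Wt. At day 0 Itgb1bp2 was at 10.91, 9.11 and 9.34 in KO, 8.92, 11.02 and 8.43 in OE and 10.96, 8.87 and 8.7 in Wt. It was thus above 10.5 on the 9 arrays with high Ckm and below 9.4 on the others. Itgb3bp, a protein of the centromere named for its binding to Itgb3, ran the other way, at 7.47 to 8.06 on those 9 arrays and 8.13 to 9.18 on the others. Itgb1bp1, which binds the tail of Itgb1, had a narrow range of log2 levels on the probe used, 8.81 to 9.6. A further Itgb1bp1 probe, also detected on all 18 arrays, had a wider range of 1.6. It was at 6.82 to 7.38 on the 9 arrays with high Ckm and at 7.74 to 8.42 on the others, as Itgb3bp was lower on those 9.

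The spread of most members was larger within labels than within the 3 mutually closest arrays. The median SD of a member was 0.46 within labelled groups and 0.21 within these sets, and 42 of 48 members (87.5%) had the smaller SD within sets. Over all genes tested the medians were 0.32 and 0.19, and the share was 87.7%, so the share of members is that of all genes. Since the sets were taken from the data, though over genes that are not members, these values describe the arrays and carry no test. For Itga9 the SD was 1.14 within labels and 0.15 within sets, and for Col23a1 1.23 and 0.24. Itgav was among the members whose SD was no smaller within sets, at 0.21 within labels and 0.25 within sets.

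**Figure D3:**
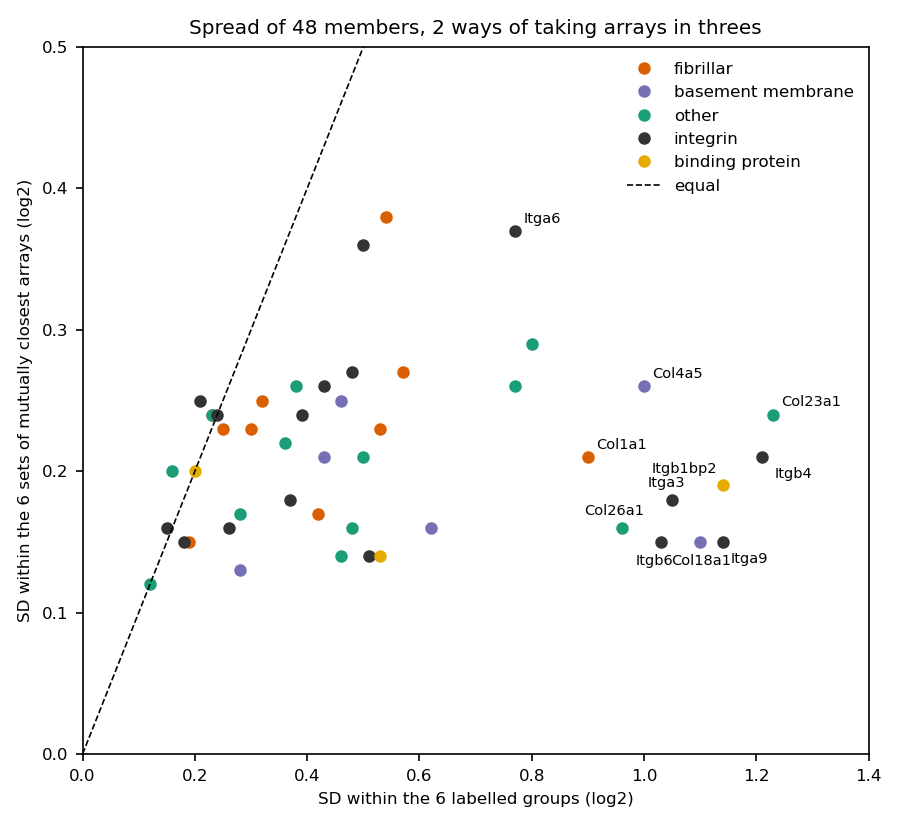
Each point is 1 of 48 members, with its SD within the 6 labelled groups on the x axis and its SD within the 6 sets of mutually closest arrays on the y axis, both in log2 units, and the dashed line where both are equal. Most points lie right of the line, with Col23a1, Itgb4 and Itga9 farthest right.

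The first comparison was of KO with Wt at day 3, that is, of cells given Cre with cells given β-galactosidase in differentiation medium. Col24a1, a fibrillar chain, averaged 6.48 ± 0.09 (SD, n = 3) in log2 level in KO and 5.58 ± 0.75 in Wt, and its arrays did not overlap. Col1a2 averaged 4.52 ± 0.06 in KO, where it was detected on 0 of 3 arrays, and 5.15 ± 0.62 in Wt, where it was detected on 3 of 3. By the group means it was at least 1.38-fold higher in Wt. Such a bound sets the mean of the group with signal against the other group's mean of, per array, the lowest detected signal or the probe's own, whichever is higher. It allows only for signal below detection. It does not cover the spread between arrays or the choice of processing, so it is no lower limit of the difference. Itgav averaged 6.46 ± 0.34 in KO and 6.02 ± 0.27 in Wt, with overlap. The log2 differences were 0.9 ± 0.33 (SE) for Col24a1, -0.63 ± 0.26 for Col1a2 and 0.44 ± 0.19 for Itgav, each with a limma adjusted p of 0.94 over all genes.

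In this comparison 0 of 48 members and 0 genes (0%) passed the limma threshold, an adjusted p below 0.05. The 3 members named had an unadjusted p below 0.05, which is 6.25% of the members against 2.26% of all genes, and the median difference over the members was 0.08. By role the median difference was 0.03 for fibrillar, -0.18 for basement membrane and 0.24 for other chains, and 0.19 for integrin subunits. Without Wt day 3 replicate 2 the difference was 0.56 for Col24a1 and 0.29 for Itgav, without Wt day 3 replicate 1 it was -0.28 for Col1a2, and without KO day 3 replicate 3 it was 0.25 for Itgav. Over the processing alternatives the differences ranged from 0.43 to 0.97 for Col24a1, from -0.71 to -0.19 for Col1a2 and from 0.07 to 0.55 for Itgav. Leaving out KO day 3 replicate 3 gave a count of 1 in place of 3, and leaving out Wt day 3 replicate 3 gave 6. Here and below, counts with an array left out lack the share of all genes beside them. They show only how far the count depends on single arrays. Members with larger differences had larger errors, such as Col26a1 (1.11 ± 0.71) and Itga3 (-1.02 ± 0.78), and Wt day 3 replicate 2 was the array of this comparison with low muscle markers.

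OE against Wt at day 3 compares the retrovirus with GATA4 and the adenovirus with β-galactosidase after the change of medium. Itgav was the member with the smallest p, with a mean log2 level of 6.52 ± 0.14 (SD, n = 3) over the OE arrays and 6.02 ± 0.27 over the Wt arrays, which did not overlap. Its log2 difference was 0.5 ± 0.19 (SE), with a limma adjusted p of 0.92. Itga9 averaged 6.19 ± 1.13 in OE against 7.23 ± 1.17 in Wt, a difference of -1.05 ± 0.84. Col18a1 averaged 11.67 ± 1.34 in OE against 10.95 ± 1.32 in Wt, a difference of 0.72 ± 0.81. Neither of these differences was larger than the spread between arrays. In limma 0 of 48 members and 0% of all genes passed the threshold, and 1 member (2.08%) had an unadjusted p below 0.05, against 3.93% of all genes. The count of 1 was 7 without OE day 3 replicate 1, 3 without Wt day 3 replicate 3 and 0 without OE day 3 replicate 3. It was 2 without OE day 3 replicate 2, Wt day 3 replicate 1, Wt day 3 replicate 2, OE day 0 replicate 2 or Wt day 0 replicate 1.

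The same comparison of KO with Wt was made in growth medium, at day 0. Col9a3, a chain of a collagen that coats cartilage fibrils, averaged 4.89 ± 0.09 (SD, n = 3) in KO and 4.42 ± 0.16 in Wt. It was detected on all 3 arrays in KO but on 0 of 3 in Wt, and by the group means was at least 1.12-fold higher in KO. Itgb1bp1 averaged 8.96 ± 0.2 in KO and 9.42 ± 0.29 in Wt, and Itgav 5.91 ± 0.1 in KO and 6.36 ± 0.23 in Wt. The arrays of Itgav did not overlap, while those of Itgb1bp1 did. The log2 differences were 0.47 ± 0.16 (SE) for Col9a3, -0.46 ± 0.18 for Itgb1bp1 and -0.45 ± 0.19 for Itgav, with limma adjusted p of 0.66, 0.73 and 0.75. In limma 0 of 48 members and 0% of all genes passed the threshold. The 3 members named (6.25%) were those with an unadjusted p below 0.05, against 6.38% of all genes, and the median member difference was 0. That count was 5 without KO day 0 replicate 1 and 1 without KO day 0 replicate 2 or replicate 3.

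OE against Wt at day 0 gave small p-values for a fibronectin and a collagen receptor. Itga5 averaged 6.89 ± 0.24 (SD, n = 3) in OE and 7.55 ± 0.12 in Wt, with no overlap. Itga11 averaged 4.9 ± 0.22 in OE, detected on 2 of 3 arrays, and 4.46 ± 0.16 in Wt, detected on 0 of 3. By the group means it was at least 1.13-fold higher in OE. The log2 differences were -0.67 ± 0.22 (SE) for Itga5 and 0.44 ± 0.15 for Itga11, each with a limma adjusted p of 0.95. In limma 0 of 48 members and 0% of all genes passed the threshold, and 2 members (4.17%) had an unadjusted p below 0.05, against 5.13% of all genes. The count of 2 was 5 without OE day 0 replicate 2. A further probe for Itga5 gave 5.94, 6.32 and 5.7 in OE and 5.76, 5.92 and 6.17 in Wt, which overlapped.

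Day 3 against day 0 in KO had the most members with small p-values. Itga4 averaged 5.5 ± 0.13 (SD, n = 3) at day 3, detected on 3 of 3 arrays, and 4.41 ± 0.31 at day 0, detected on 1 of 3. Col26a1 averaged 10.1 ± 0.39 at day 3 and 8.45 ± 1.1 at day 0, and Col24a1 6.48 ± 0.09 at day 3 and 5.6 ± 0.58 at day 0. Itga2b averaged 5.95 ± 0.22 at day 3 and 5.25 ± 0.25 at day 0, Itgav 6.46 ± 0.34 and 5.91 ± 0.1, and Itgb1bp1 9.36 ± 0.11 and 8.96 ± 0.2. All but Col26a1 had day 3 arrays above every day 0 array. These members were picked by their p in this same comparison, and the share of all genes without overlap was not counted, so this lends no support. A further Col24a1 probe, detected on 16 arrays, overlapped, at 6.12, 6.61 and 6.76 at day 3 and 6.76, 5.29 and 5.12 at day 0. The log2 differences were 1.1 ± 0.37 (SE) for Itga4, 1.65 ± 0.71 for Col26a1, 0.88 ± 0.33 for Col24a1, 0.7 ± 0.31 for Itga2b, 0.54 ± 0.19 for Itgav and 0.4 ± 0.18 for Itgb1bp1. Each of these had a limma adjusted p of 0.49, the smallest in any of the comparisons of the members. For Itga4, which was detected on 1 of 3 arrays at day 0, the difference ranged from 0.37 to 1.23 over the processing alternatives, and for Itgav from 0.14 to 0.56. For Itgb1bp1 it turned to -0.11 with the mean of its probes, since the further probe was at 7.16, 7.3 and 6.82 at day 3 and 7.17, 7.74 and 8.22 at day 0. Without KO day 3 replicate 3 the Itgav difference was 0.35. The further Col26a1 probe, close to background, did not repeat the rise, at 4.54, 4.58 and 4.44 at day 3 and 4.78, 4.68 and 4.62 at day 0.

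In this comparison 0 of 48 members and 0% of all genes passed the limma threshold. The 6 members named (12.5%) had an unadjusted p below 0.05, against 8.31% of all genes. Of the others, Itga9 differed by 1.64 ± 0.84 and Col18a1 by -1.45 ± 0.81. In all, 8 members lay above the 95th percentile of all genes, 0.94, and 2 below the 5th, -0.91. KO day 0 replicate 1 had a muscle marker mean of 13.09 beside 11.58 and 11.69 on the other KO day 0 arrays, and the count of 6 was 18 without it. The count was 2 without KO day 0 replicate 2 or without replicate 3. The share of all genes in these refits is not given, so the count of 18 is not read as a result about the members. With limma weights on the arrays, 29 members (60.4%) and 52.6% of all genes passed the adjusted threshold here.

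In OE and Wt the later day brought fewer small p-values. In OE, Col7a1 averaged 6.81 ± 0.73 (SD, n = 3) at day 3 and 6.04 ± 0.42 at day 0, with overlap, a difference of 0.77 ± 0.35 (SE) and a limma adjusted p of 1. Without OE day 3 replicate 1 that difference was 0.36. Col7a1 was the single member (2.08%) with an unadjusted p below 0.05, against 4.55% of all genes, and 0 of 48 members and 0% of all genes passed the limma threshold. In Wt, 0 of 48 members and 0% of all genes passed the limma threshold, and 0 members (0%) had an unadjusted p below 0.05, against 3.97% of all genes. Col26a1 differed by 1.32 ± 0.71 and Itga9 by 0.92 ± 0.84 in Wt. The count of 1 in OE was 3 without OE day 3 replicate 2 or Wt day 3 replicate 2, and 2 without OE day 3 replicate 1, Wt day 3 replicate 1 or OE day 0 replicate 2. It was 0 without KO day 3 replicate 1 or 2, KO day 0 replicate 3, OE day 0 replicate 1 or 3, or Wt day 0 replicate 1 or 3. The count of 0 in Wt was 4 without Wt day 3 replicate 2, 3 without Wt day 0 replicate 1, and 2 without OE day 3 replicate 1 or Wt day 3 replicate 1 or 3. It was 1 without OE day 0 replicate 2 or Wt day 0 replicate 2.

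The change from day 0 to day 3 was then set against that in Wt. For Itgav the change was larger in KO than in Wt by 0.89 ± 0.27 (SE), the smallest unadjusted p of any member in these comparisons (0.0047, limma adjusted p 1), and larger in OE than in Wt by 0.74 ± 0.27 (limma adjusted p 0.8). The other Itgav probes, detected on 9 and 7 arrays, lay at 4.44 to 5.84 and 4.27 to 5.33 over all 18 arrays. Neither repeated the rise in KO. The first was at 4.6, 4.74 and 4.84 in KO at day 3 and 5.11, 4.54 and 4.67 at day 0. The second was at 4.63, 4.74 and 4.38 in KO at day 3 and 4.27, 4.64 and 5.08 at day 0. Both differences share the Wt arrays, whose Itgav levels averaged 6.02 ± 0.27 (SD, n = 3) at day 3 and 6.36 ± 0.23 at day 0. For Col1a2 the change was smaller than in Wt by -0.8 ± 0.37 in KO and by -0.84 ± 0.37 in OE, and for Itgb1bp1 it was larger in KO by 0.61 ± 0.26. Col1a2 was detected on 0 of 3 arrays in KO day 3 and in OE day 3, so its values rest on background there, and without Wt day 3 replicate 1 they were -0.44 in KO and -0.49 in OE. Over the processing alternatives the Itgav values ranged from 0.25 to 0.89 in KO and from 0.3 to 0.74 in OE, and the Col1a2 values from -0.83 to -0.21 in KO and from -0.87 to -0.21 in OE. The Itgb1bp1 value in KO ranged from 0.25 to 0.61. Its further probe was at 7.16, 7.3 and 6.82 in KO at day 3 and 7.17, 7.74 and 8.22 at day 0. In Wt that probe was at 7.38, 7.84 and 7.09 at day 3 and 7.13, 8.36 and 8.31 at day 0. In limma 0 of 48 members and 0% of all genes passed the threshold for either difference. At an unadjusted p below 0.05 there were 3 members (6.25%) for KO, against 3.59% of all genes, and 2 (4.17%) for OE, against 6.2%. Leaving out Wt day 3 replicate 3 brought the KO count to 6, and leaving out KO day 3 replicate 3 or KO day 0 replicate 2 brought it to 1. The OE count was 4 without OE day 3 replicate 1 or 2, Wt day 3 replicate 2 or Wt day 0 replicate 1, and 1 without OE day 3 replicate 3, Wt day 3 replicate 1 or Wt day 0 replicate 2.

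A test for any difference among the 6 groups gave 0 of 48 members and 0% of all genes past the limma threshold. An unadjusted p below 0.05 was found for 5 members (10.4%), against 7.52% of all genes, and these were Col7a1, Col26a1, Itga4, Itgav and Itga5, with limma adjusted p of 0.65 or 0.66. The count of 5 was 9 without OE day 0 replicate 2, 3 without KO day 3 replicate 1, KO day 0 replicate 2 or OE day 0 replicate 1 or 3, and 2 without KO day 3 replicate 2 or 3.

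**Figure D4:**
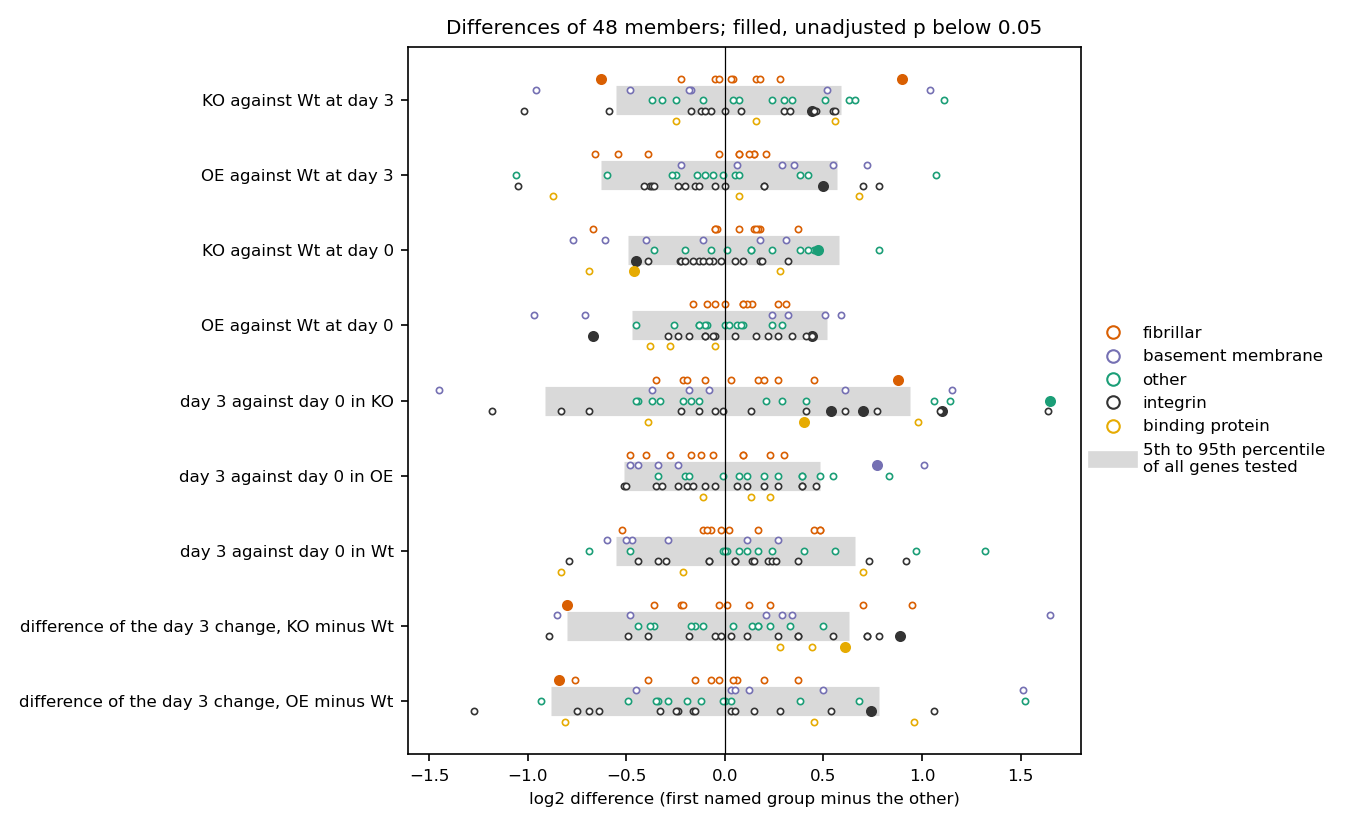
Each point is the log2 difference of 1 member in 1 of 9 comparisons (rows), the first named group minus the other, coloured by role and filled where the unadjusted limma p is below 0.05. The grey bars span the 5th to the 95th percentile of all 11921 genes, and most members lie inside them.

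The genes that make, crosslink and cleave collagen or link integrins to the cell interior were taken as lists. In KO at day 3 against day 0, the comparison with the most small p-values, 0 genes of these lists passed the limma threshold. Of 23 genes of collagen synthesis and crosslinking 1 was higher at an unadjusted p below 0.05, Pcolce, an enhancer of procollagen cleavage (0.4 ± 0.16, SE), and 0 were lower. Of 16 laminins and other ligands 2 were higher, Lama2, the laminin chain of muscle basement membranes (0.68 ± 0.16, unadjusted p 0.00092, limma adjusted p 0.49), and Thbs2 (1.23 ± 0.49), and 0 lower. Of 14 collagen-binding matrix proteins 2 were higher, Dpt (0.9 ± 0.36) and Mfap5 (0.63 ± 0.29), and 1 lower, Mfap2 (-0.89 ± 0.41). Of 22 adhesion proteins inside the cell 1 was higher, the kindlin Fermt2 (0.76 ± 0.34), and 2 lower, Src (-1.16 ± 0.46) and Bcar1 (-0.33 ± 0.15). Of 13 proteases and inhibitors and of 9 other collagen receptors, 0 were higher and 0 lower. Over all genes 4.38% were higher and 3.93% lower at this p.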

How the data were processed

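Total RNA of 18 samples, in 6 groups of 3 by the labels, was hybridised to 1-colour Illumina MouseWG-6 arrays. The values used are the deposited probe intensity and detection p-value of each array, per the file headers. The scanner software and the normalisation behind the authors' processed table are not given in the sources used here. That table, deposited as linear intensity, kept each array's probe ranks and served as an alternative.

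Background was corrected with limma's normexp from the detection p-values (offset 16), arrays were quantile normalised, and log2 values were used. Probes with a detection p below 0.05 on 3 or more arrays were kept, which left 22365 of 45281. The platform annotation gave 1 symbol for 34885 probes, several for 18 and none for 10378. Symbols were updated by Entrez ID for 34807 probes, and the brightest kept probe stood for its gene. Limma 3.58.1 in R 4.3.3 fitted 1 mean for each of the 6 groups on all 18 arrays and 11921 genes, with no block, and p-values were adjusted over all genes (Benjamini-Hochberg) within each of 10 tests. The procedure was tested on simulated data with independent normal values around 1 mean per gene. Those data lacked the sets of arrays that cross the labels here, so that test does not cover them. The number of arrays limits the precision.

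The members named in a comparison are at most 6 with an unadjusted p below 0.05. The main fibrillar, basement membrane and type VI chains, the integrin subunits known from muscle and the 8 members with the largest ranges are given array by array. The members and lists were chosen with earlier results of these data known. Alternatives were other background corrections and normalisations, the authors' values, other filters, the mean of a gene's probes, array weights, a replicate block, fits of the compared groups alone and each array left out in turn.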

Additional observations from a re-analysis of the deposited data

How the results depend on the processing

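Array weights in limma were the single alternative that brought members past the adjusted threshold. With weights of 0.239 to 4.08, the count was 3 for KO against Wt at day 0 (Col3a1, Itgb1bp1 and Itgb3bp), or 6.25% of members against 8.84% of all genes. It was 3 for OE against Wt at day 0 (Col7a1, Itga11 and Itga5), or 6.25% against 8.07%, and 29 for day 3 against day 0 in KO, or 60.4% against 52.6%. It was 3 for day 3 against day 0 in Wt (Col26a1, Itga9 and Itgb3bp), or 6.25% against 5.51%, and 34 for any difference, or 70.8% against 64.3%. The cause was not tested. With the replicate block the count past the threshold was 0 in each of the 10 tests. Leaving out each array in turn gave counts of 0 to 0 past the threshold in each test. The replicate numbers did not pair the arrays. Correlations of same-numbered arrays' deviations ran from -0.73 to 0.79 over 45 pairs, 18 of them over 0.1, and 6 arrays correlated best with their own number. The log2 difference of Itgb1bp1 for day 3 against day 0 in KO was -0.11 with the mean of all kept probes. Over the alternatives, differences also ranged from 0.11 to 0.52 for Col9a3 (KO against Wt at day 0), from -0.76 to -0.32 for Itga5 and 0.1 to 0.62 for Itga11 (OE against Wt at day 0), and, for day 3 against day 0 in KO, from 0.74 to 2.29 for Col26a1, 0.3 to 1.21 for Col24a1 and 0.25 to 0.84 for Itga2b. Genes close to background, such as Col1a2, Col9a3 and Itga11, have bounds rather than levels in groups where they were not detected.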

Other observations

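Further probes of several members gave the same picture on their own scales. The second probe for Itga7 ranged from 5.44 to 8.23 in log2 level, that for Itgb4 from 4.66 to 7.94, that for Col18a1 from 5.06 to 8.7, that for Col4a5 from 4.35 to 7.31 and that for Itga9 from 4.36 to 6.28. Each was high or low on much the same arrays as the probe used for its gene. Other further probes differed from the probe used, such as those for Itgb1bp1 and Itgav given above. That for Col3a1, detected on 12 arrays, was highest on Wt day 0 replicates 1 and 2 (5.86 and 5.6) and at 4.67 on OE day 0 replicate 2. Those for Itga4 stayed close to background, at 4.23 to 4.98, 4.32 to 4.82 and 4.18 to 4.89. The last of these, detected on 5 arrays, was highest on the 3 KO day 3 arrays, KO day 0 replicate 1 and Wt day 3 replicate 3, at 4.68 to 4.89. These arrays were also among the highest on the Itga4 probe used.

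Ranges over the 18 arrays had a median of 1.43 for 23 genes of collagen synthesis and crosslinking, 1.76 for 16 laminins and other ligands, 1.58 for 14 collagen-binding proteins, 1.7 for 13 proteases and inhibitors and 1.48 for 9 other collagen receptors. Of these, 3, 4, 4, 5 and 3 genes had a range above 2. The 22 adhesion proteins inside the cell had a median range of 1.31, with 5 genes above 2. Over all 11921 genes tested the median range was 1.16, and 14.8% had a range above 2. The genes named next are among those with the largest ranges in their lists. Lox, which crosslinks collagen, ranged from 5.82 to 9.65 in log2 level, and Pcolce2 from 6.18 to 9.78. Dcn, a proteoglycan that binds collagen fibrils, ranged from 5.33 to 8.78, and Fbln1 from 6.39 to 9.72. Fn1, the fibronectin bound by Itga5, ranged from 6.89 to 9.54, and Tnc, the tenascin bound by Itga9, from 7.22 to 9.84. The collagenase Mmp13 ranged from 4.69 to 8.56, and Dag1, the dystroglycan that binds laminin, from 8.04 to 11.16.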
